A study of Mus musculus with 8 samples.

Results

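The transcripts described here are those of 9 genes of the chemokine system: the receptors Cx3cr1, Cxcr4 and Ackr3 and the ligands Cx3cl1, Cxcl12, Cxcl16, Ccl3, Ccl4 and Ccl12. They were taken by gene symbol from a table of 53278 gene symbols, and all 9 were found in it. The table holds RNA sequencing counts of the whole forebrain of 8 male C57BL/6J mice, aged 10 to 20 weeks. Of these, 4 mice, called depleted below, ate food with PLX3397 for 9 days, and 4 control mice ate control food for the same time. PLX3397 inhibits the receptor tyrosine kinase CSF1R, whose signal microglia need to survive, and it is also known to inhibit KIT and FLT3. The inhibitor was in the food of the whole animal, so macrophages and blood cells outside the brain were exposed as well. The mice carried no transgene or engineered allele named in the labels, and each library is labelled as 1 mouse.

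Chemokines are small secreted proteins that guide the movement of cells, and their receptors are G-protein-coupled receptors that signal mostly through the inhibitory G proteins. In the brain the best known pair is CX3CL1, or fractalkine, a membrane-bound ligand made mainly by neurons, and CX3CR1, its receptor on microglia. CXCL12 is made by meningeal, vascular and some neuronal cells and binds 2 receptors, the signalling receptor CXCR4 and ACKR3, which takes up the ligand without the usual G-protein signal. CCL3 and CCL4 attract leukocytes, CCL3 binds CCR1, CCL12 is a ligand of CCR2, and CXCL16 is a second membrane-bound chemokine and binds CXCR6.

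Total counts per mouse ranged from 48455538 to 68406688, and levels are given as CPM, the count relative to the normalized library size. In each group 2 mice (mice 2 and 3) had at least 100 counts of Hcrt, a hypothalamic neuropeptide gene, and the other 2 had fewer. The microglia list of 17 genes leaves out Cx3cr1. It summed to between 290.7 and 350.9 CPM in the control mice and to between 33.4 and 40.5 CPM in the depleted mice. By the edgeR test described below all 17 genes were lower, beside 1.11% of all genes tested. None of the 17 was at 0 in every depleted mouse. In bulk tissue, fewer cells of a type and less RNA per cell cannot be told apart.

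The sequences just upstream of the receptor Cx3cr1, whose transcript fell, and of its ligand Cx3cl1, whose transcript did not pass the test, are shown first, together with those of Ccl6 and Ccl9, the ligands whose transcripts fell, and of Ccl12, which had no count in any depleted mouse. Each is the 250 bases before the RefSeq transcription start, read 5′ to 3′ on the gene's strand in build GRCm38.p6. They lie at chr9:120068297-120068546 on the minus strand (Cx3cr1), chr8:94771930-94772179 on the plus strand (Cx3cl1), chr11:83593088-83593337 on the minus strand (Ccl6), chr11:83578637-83578886 on the minus strand (Ccl9) and chr11:82101595-82101844 on the plus strand (Ccl12). Capitals mark matches to 3 motifs: GAGGAA on either strand (the PU box, a short motif of the macrophage factor PU.1), AGGAAGT on either strand (a core shared by ETS factors, which may overlap a PU box), and TATAAA on the gene's strand.
Cx3cr1: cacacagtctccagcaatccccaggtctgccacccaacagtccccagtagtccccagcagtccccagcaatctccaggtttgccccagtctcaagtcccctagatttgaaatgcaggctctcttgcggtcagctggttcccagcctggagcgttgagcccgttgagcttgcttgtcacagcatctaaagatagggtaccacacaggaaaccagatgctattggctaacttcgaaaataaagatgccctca
Cx3cl1: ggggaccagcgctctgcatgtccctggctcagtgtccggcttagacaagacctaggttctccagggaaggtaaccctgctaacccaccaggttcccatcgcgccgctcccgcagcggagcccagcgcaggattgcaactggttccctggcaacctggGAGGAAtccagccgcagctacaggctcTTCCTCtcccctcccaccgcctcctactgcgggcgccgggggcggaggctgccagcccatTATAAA
Ccl6: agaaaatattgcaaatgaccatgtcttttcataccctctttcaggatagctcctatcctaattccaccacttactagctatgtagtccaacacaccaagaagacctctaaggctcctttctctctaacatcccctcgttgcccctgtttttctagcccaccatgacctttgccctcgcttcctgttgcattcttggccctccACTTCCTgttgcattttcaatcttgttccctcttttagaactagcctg
Ccl9: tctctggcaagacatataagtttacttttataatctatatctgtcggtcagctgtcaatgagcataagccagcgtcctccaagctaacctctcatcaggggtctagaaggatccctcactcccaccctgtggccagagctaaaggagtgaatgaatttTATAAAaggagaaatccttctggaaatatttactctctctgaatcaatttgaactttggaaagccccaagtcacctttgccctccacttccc
Ccl12: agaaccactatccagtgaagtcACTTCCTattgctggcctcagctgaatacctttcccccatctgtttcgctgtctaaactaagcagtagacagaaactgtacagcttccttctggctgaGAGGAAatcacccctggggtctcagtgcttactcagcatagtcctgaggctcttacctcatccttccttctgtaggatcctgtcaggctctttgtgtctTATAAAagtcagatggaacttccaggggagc
The Cx3cl1 sequence held 2 PU boxes and a TATAAA that ended at the RefSeq start. Cx3cr1 held none of the 3 motifs in this stretch. Ccl6 held 1 AGGAAGT match, Ccl9 held 1 TATAAA match, and Ccl12 held 1 match of each motif. Of the members, 7 of 9 had an entry in the RefSeq promoter table, and no entry was used for Ccl4 and Cxcl16. Over the full 300 bases, which add 50 bases after the start, the other members with an entry were Ccl3, with 1 PU box, Cxcr4 and Ackr3, with 1 TATAAA each, and Cxcl12, with none of the 3. Among all 32851 promoters of the same length, 28.3% held a PU box, 9.35% an AGGAAGT and 8.32% a TATAAA. The same windows held 19 CpG dinucleotides in Cx3cl1, 20 in Cxcl12, 20 in Cxcr4, 8 in Ackr3, 5 in Cx3cr1, 3 in Ccl3 and 2 each in Ccl6, Ccl9 and Ccl12. Over all promoters the median was 7 CpG, with quartiles at 3 and 20. A GENCODE M21 gene model of Cx3cr1 extends further upstream than the RefSeq start used here. The model of Cx3cl1 also begins inside the printed stretch, at 94772009, and every motif match marked in that stretch lies after this start.

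Among the members with enough counts to be tested, 1 transcript fell and none rose past the threshold. Of the 9 genes, 6 had enough counts to be tested across all 20140 genes with edgeR's quasi-likelihood test, and 1 of these 6, Cx3cr1, was lower in the depleted mice at an adjusted p under 0.05. The share of all tested genes called lower was 1.11%, and the share called higher was 0.0546%. DESeq2 and edgeR with no count filter also called only Cx3cr1 among the members, where they called 1.72% and 0.665% of all genes lower and 0.586% and 0.0670% higher. Without depleted mouse 2, the counts over all genes rose from 223 lower and 11 higher to 441 lower and 243 higher, while the members still gave 1 lower and 0 higher. The median log2 fold change of the 6 members was -0.17, beside -0.0004 for all genes tested. Ccl3, Ccl4 and Ccl12 had too few counts for the fit and are given by their counts in each mouse.

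**Figure D1:**
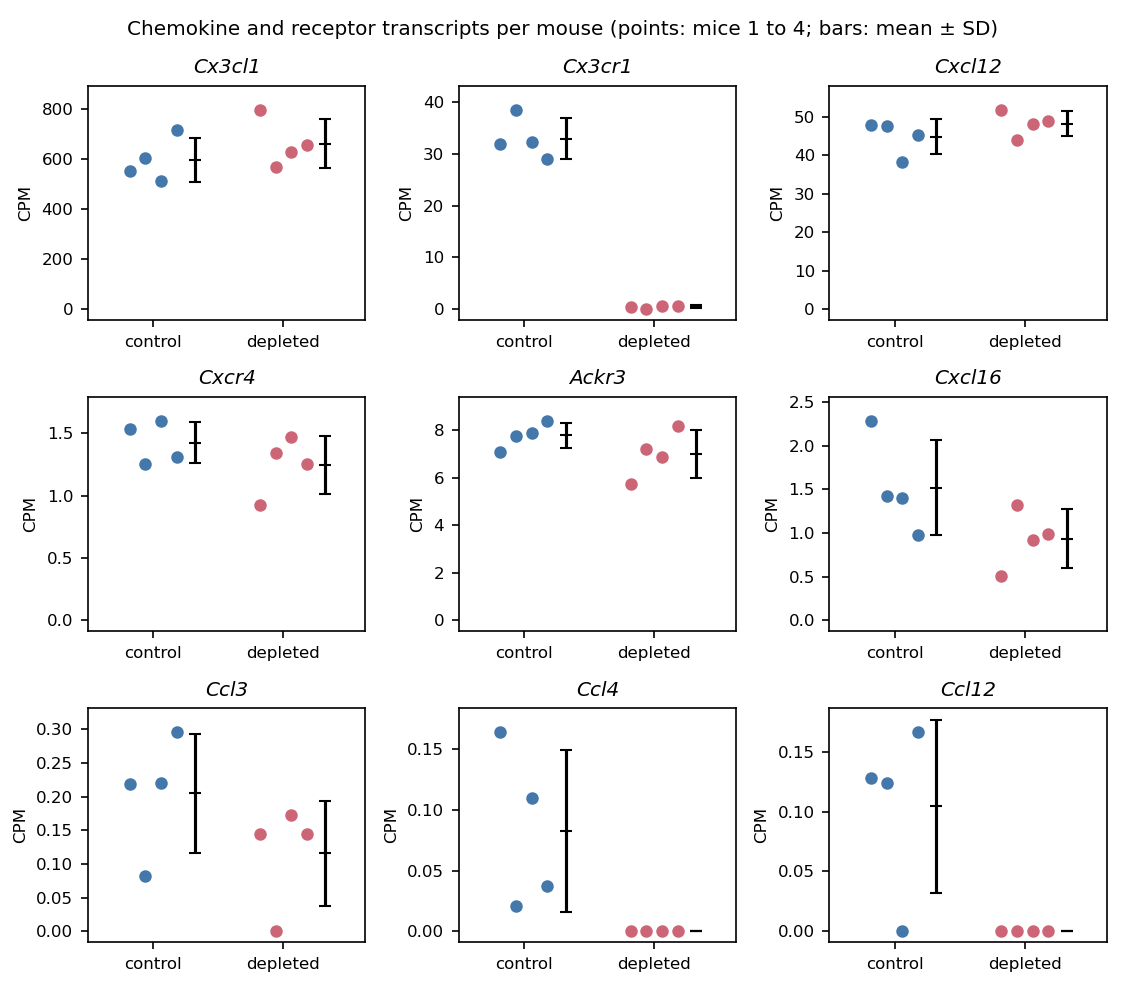
Transcript level in CPM (y axis) of the 9 genes in each control and depleted mouse; points are mice 1 to 4 from left to right and the bars beside them are the mean ± SD of the group. The groups separate for Cx3cr1, which lies at 29.0 to 38.5 CPM in control mice and at 0.102 to 0.699 CPM in depleted mice, and for Ccl4, which is at 0 in every depleted mouse, and they overlap in the other 7 panels.

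The transcript of the fractalkine receptor fell in every depleted mouse, while that of its ligand did not pass the test. Cx3cr1 lies on chromosome 9 from 119901616 to 120069879 on the minus strand of mm10, and 78 of its exon bases overlap Gm33858 on the opposite strand. In control mice 1 to 4 it had 1745, 1868, 1756 and 1568 counts, which is 31.9, 38.5, 32.3 and 29.0 CPM. Depleted mice 1 to 4 had 29, 5, 41 and 34 counts, or 0.526, 0.102, 0.592 and 0.699 CPM. Every depleted mouse was far below every control mouse, and depleted mouse 2 was the lowest of its group. Of all genes tested, 3.50% had every depleted mouse below every control mouse and 2.28% had every depleted mouse above. The mean fell from 32.9 ± 3.99 CPM to 0.480 ± 0.262 CPM (SD, n = 4 each). The log2 fold change was -6.07 (SE 0.32, 95% interval -6.80 to -5.35; edgeR adjusted p = 9.49e-06), which left 1.48% of the control level, with an interval of 0.900% to 2.45%.

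The Cx3cr1 transcript that was left varied between the depleted mice in the same order as the microglia list. Relative to the control mean, Cx3cr1 stood at 1.60%, 0.309%, 1.80% and 2.13% in depleted mice 1 to 4. The microglia list, by its mean log2 CPM, stood at 3.71%, 2.66%, 6.34% and 6.58% in the same mice. Both were lowest in depleted mouse 2 and highest in depleted mouse 4. Among the 17 microglia genes the fitted level left ranged from 1.11% for P2ry13, a purinergic receptor, to 73.5% for Sall1, a microglial transcription factor, with a median of 2.55%, and 2 of the 17 had a smaller share left than Cx3cr1. Of the 15583 genes whose mean reached 1 CPM, the 3 whose log2 deviations from the control mean lay nearest to those of Cx3cr1 over the 8 mice were Siglech, Csf1r and P2ry13, at Euclidean distances of 0.84, 1.11 and 1.34. All 3, Siglech, a sialic acid-binding lectin, Csf1r, the target of the inhibitor, and P2ry13, are themselves on the microglia list.

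Cx3cl1, on chromosome 8 from 94772009 to 94782427 on the plus strand, was the most abundant member in both groups. Its level was 554, 604, 515 and 718 CPM in control mice 1 to 4 and 798, 567, 628 and 658 CPM in depleted mice 1 to 4. The groups overlapped, with depleted mouse 1 above all control mice and the other 3 inside the control range. The means were 597.8 ± 88.3 CPM and 662.9 ± 97.5 CPM (SD, n = 4 each). The log2 fold change of 0.15 (SE 0.13, 95% interval -0.14 to 0.44) did not pass the test (edgeR adjusted p = 0.740). With the mean log2 CPM of a fibroblast list as a covariate it was -0.03. Summed levels of the 8 neuronal markers overlapped between the groups, at 5477 to 7112 CPM and 5357 to 6995 CPM in control and depleted mice.

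Both proteases that cut membrane-bound CX3CL1 and CXCL16 from the cell surface also showed no change past the test. Adam10, the protease of constitutive shedding, averaged 74.4 ± 6.12 CPM in control mice and 74.2 ± 6.00 CPM in depleted ones (SD, n = 4 each), a log2 fold change between -0.18 and 0.17 at 95% (edgeR adjusted p = 0.992). Adam17, the protease of induced shedding, had 18.1 ± 0.870 and 17.8 ± 1.11 CPM, with an interval of -0.19 to 0.14 (adjusted p = 0.937). Both intervals stayed within 0.19 of 0 on the log2 scale.

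**Figure D2:**
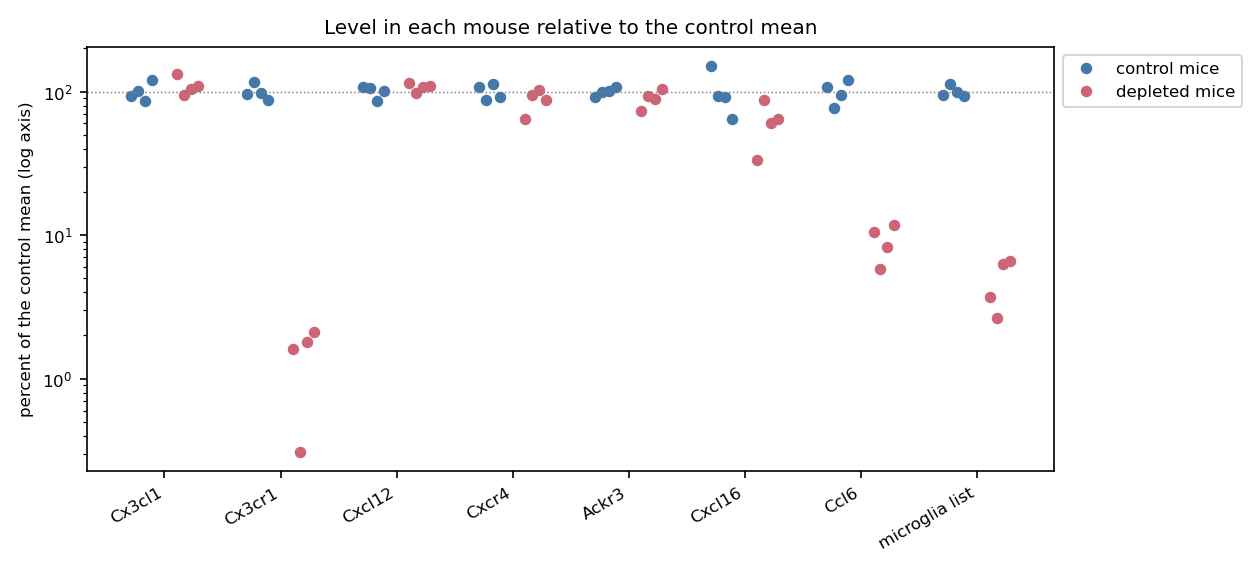
Level in each mouse as a percent of the control mean (log axis) for 6 members, the ligand Ccl6 and the microglia list, for which the mean log2 CPM over 17 genes was used. Depleted mice stand at 0.309% to 2.13% for Cx3cr1 and at 2.66% to 6.58% for the microglia list, while Cx3cl1, Cxcl12, Cxcr4 and Ackr3 lie around 100% in both groups.

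Differences in Cxcl12 and its 2 receptors did not pass the test. Cxcl12, on chromosome 6 from 117168535 to 117181367 on the plus strand, had 48.0, 47.7, 38.3 and 45.3 CPM in control mice 1 to 4. It had 51.8, 44.1, 48.2 and 49.0 CPM in depleted mice 1 to 4. Although 3 of the 4 depleted mice lay above all control mice, they did so by little, and control mouse 3 alone was below 40 CPM. Means were 44.9 ± 4.52 and 48.3 ± 3.21 CPM (SD, n = 4 each), and the log2 fold change was 0.11 (SE 0.08, 95% interval -0.08 to 0.29; edgeR adjusted p = 0.702).

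Cxcr4, the signalling receptor of CXCL12, lies on chromosome 1 from 128588199 to 128592293 on the minus strand. It had 84, 61, 87 and 71 counts in control mice 1 to 4, or 1.53, 1.26, 1.60 and 1.31 CPM, and 51, 66, 102 and 61 counts in depleted mice 1 to 4, or 0.925, 1.34, 1.47 and 1.25 CPM. Depleted mouse 1 was the lowest of all 8, and the groups overlapped. The log2 fold change was -0.19 (SE 0.19, 95% interval -0.61 to 0.23; edgeR adjusted p = 0.777), from 1.43 ± 0.167 to 1.25 ± 0.233 CPM. As a share of the control level, this interval ran from 65.6% to 117.1%.

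Ackr3, the scavenging receptor of CXCL12, lies on the same chromosome from 90203980 to 90216751 on the plus strand. Control mice 1 to 4 had 7.09, 7.72, 7.88 and 8.38 CPM, and depleted mice 1 to 4 had 5.73, 7.20, 6.87 and 8.17 CPM. As for Cxcr4, depleted mouse 1 was the lowest and the groups overlapped. The means were 7.77 ± 0.532 and 6.99 ± 1.00 CPM, with a log2 fold change of -0.15 (SE 0.12, 95% interval -0.42 to 0.11; edgeR adjusted p = 0.698). Markers of endothelial and mural cells, vascular cell types that express this axis, overlapped between the groups. The 10 endothelial markers summed to 300.9 to 383.8 CPM in the control group and 294.6 to 385.0 CPM in the depleted group, and the 9 mural markers to 198.1 to 244.4 and 195.4 to 215.4 CPM, with 0 genes called in either list. The fibroblast markers described with Cxcl16 below were lower in depleted mice 1, 3 and 4 than in every control mouse and lowest in depleted mouse 1, and their part in the Cxcr4 and Ackr3 values was not tested.

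Cxcl16 was lower on average in the depleted mice, with an unadjusted p of 0.0557 by edgeR, but did not pass the test after adjustment. It lies on chromosome 11 from 70453983 to 70459984 on the minus strand, and 552 of its exon bases overlap Zmynd15 on the other strand, whose reads it may include. Control mice 1 to 4 had 125, 69, 76 and 53 counts, or 2.28, 1.42, 1.40 and 0.980 CPM. Depleted mice 1 to 4 had 28, 65, 64 and 48 counts, or 0.508, 1.32, 0.923 and 0.987 CPM. Depleted mice 1 and 3 lay below all control mice, depleted mouse 4 just above control mouse 4, and depleted mouse 2 within the control range. The means were 1.52 ± 0.547 and 0.935 ± 0.334 CPM (SD, n = 4 each). The log2 fold change was -0.71 (SE 0.32, 95% interval -1.43 to 0.02; edgeR adjusted p = 0.470), or 61.3% of the control level.

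The Cxcl16 difference moved with single mice and with the fibroblast markers. It was -0.44 on the log2 scale without control mouse 1 and -0.51 without depleted mouse 1, and -0.87 without control mouse 4 and -0.91 without depleted mouse 2. It was -0.33 between the mice with Hcrt counts and -1.13 between those without, 2 against 2 each, with a difference of 0.80 between the strata (edgeR interaction, adjusted p = 1.00). The 6 fibroblast markers, all of them tested and none called, summed to 82.7 to 129.0 CPM in the control group and 45.1 to 114.6 CPM in the depleted group. Their mean log2 CPM was 3.97, 3.45, 3.58 and 3.21 in control mice 1 to 4 and 2.65, 3.81, 3.10 and 2.83 in depleted mice 1 to 4. Both control mouse 1, highest for Cxcl16, and depleted mouse 1, lowest for it, were also the highest and the lowest for this list. With the list as a covariate, chosen after the values were seen, the Cxcl16 log2 fold change was -0.21 (edgeR adjusted p = 0.980), and with the striatum list it was -0.27. The gene Ogn of the fibroblast list was also among the 3 genes nearest to Cxcl16 over the 8 mice, with P2rx5 and Psmb8. Depleted mice 1, 3 and 4 lay below every control mouse for the fibroblast list, so fibroblast content and diet cannot be told apart here. The part of fibroblasts in the Cxcl16 values was not tested further.

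**Figure D3:**
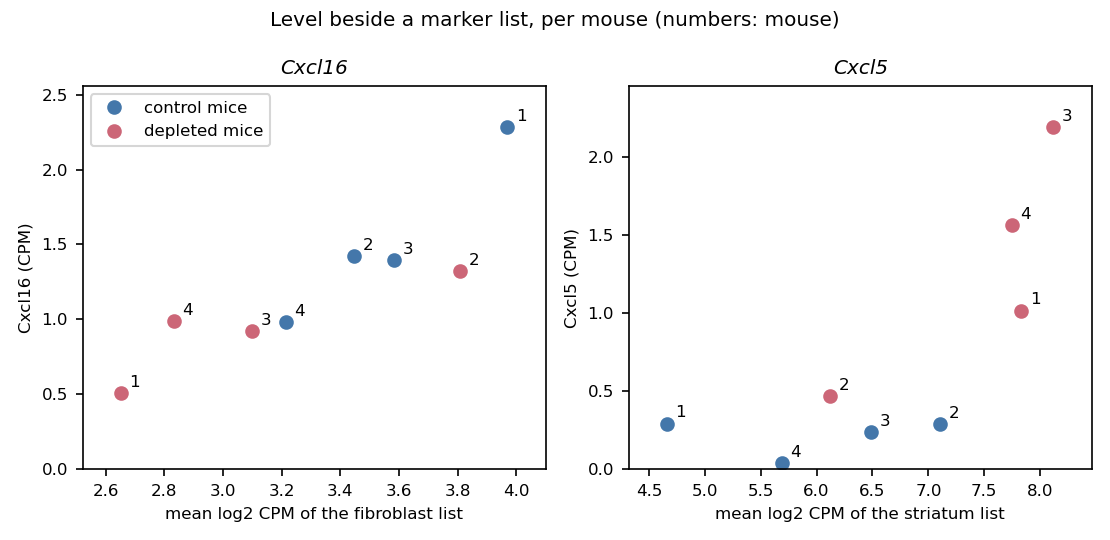
Level in CPM (y axis) of Cxcl16 against the mean log2 CPM of 6 fibroblast markers (left) and of Cxcl5 against that of 9 striatum markers (right); each point is a mouse, numbered within its group. For Cxcl16, control mouse 1 at 2.28 CPM and depleted mouse 1 at 0.508 CPM hold the highest and lowest fibroblast values, and for Cxcl5 the depleted mice lie at 0.468 to 2.19 CPM, above all control mice.

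The CC ligands among the members were rare in both groups. Ccl3, on chromosome 11 from 83647844 to 83649355 on the minus strand, had 12, 4, 12 and 16 counts in control mice and 8, 0, 12 and 7 in depleted mice. Apart from the 0 in depleted mouse 2, the depleted counts lay within the range of the control counts. Summed over each group, 44 counts against 27 left 58.5% of the control level, with an exact binomial interval of 34.8% to 96.6% that covers counting error only. The exact two-sided permutation test over the 70 splits of the mice gave p = 0.286, and with no count filter edgeR put the difference at -0.79 on the log2 scale (SE 0.61, adjusted p = 0.708).

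Ccl4, close to Ccl3 on chromosome 11 from 83662584 to 83664683 on the plus strand, had no count in any depleted mouse. The control mice had 9, 1, 6 and 2 counts, so that 1 mouse held 9 of the 18 counts. With the depleted group set at a floor of 3 counts and the 18 control counts taken as exact, Ccl4 was 6.30-fold lower. This value leaves out the error of the control counts and the spread between mice. The exact permutation test gave p = 0.0286, the smallest that 4 mice against 4 allow, and the edgeR test with no filter did not pass (adjusted p = 0.175). Among 8226 genes under the filter with at least 9 counts in all, 2.55% had all depleted mice below all control mice, and 0.511% had no count in any depleted mouse.

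Ccl12, on chromosome 11 from 82101845 to 82103400 on the plus strand, was also at 0 in every depleted mouse. The control mice had 7, 6, 0 and 9 counts, so control mouse 3 could not be told from the depleted mice. At the same floor of 3 counts over the depleted group, Ccl12 was 7.70-fold lower, again with the control counts taken as exact. The exact permutation test gave p = 0.143, and edgeR with no filter gave an adjusted p of 0.182.

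Receptors of these ligands and of CXCL16 had few counts. Ccr2, the receptor of CCL12 and a marker of monocytes, had 9, 11, 4 and 7 counts in control and 3, 1, 2 and 1 in depleted mice, so 21.5% was left, with an exact binomial interval of 8.0% to 49.8% and an exact permutation p of 0.0286. Its groups did not overlap, but only by 1 count, and 2.55% of genes under the filter with at least 9 counts were separated that way. The 5 monocyte markers, of which Ccr2 is 1, summed to 0.240 to 0.349 CPM in the control group and 0.127 to 0.305 CPM in the depleted group. Ccr1, a receptor of CCL3, had 7, 2, 0 and 0 counts in control mice and 0 in each depleted mouse (exact permutation p = 0.429). With the depleted group set at 3 counts and the control counts taken as exact, Ccr1 was 3.15-fold lower. Cxcr6, the receptor of CXCL16, had 3, 4, 1 and 4 counts in control and 0, 2, 2 and 0 in depleted mice, or 31.8% left with an interval of 7.47% to 104.8% (exact permutation p = 0.114).

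Ligand and receptor were then compared within each mouse, as the difference of their log2 CPM (prior count 2), over 9 pairs of members. Cx3cr1 minus Cx3cl1 was -4.18 ± 0.31 in control mice and -10.56 ± 1.00 in depleted mice (SD, n = 4 each), a change of -6.38. The exact permutation test gave p = 0.0286 for this pair, again the smallest value that the design allows, and 0.0514 after adjustment over the 9 pairs, so that 0 of the 9 passed. The difference between Cxcr4 and Cxcl12 changed by -0.31 (exact permutation p = 0.286, adjusted 0.367) and that between Ackr3 and Cxcl12 by -0.27 (p = 0.171, adjusted 0.257). Between Ackr3 and Cxcr4, both receptors of 1 ligand, the change was 0.04 (p = 0.743 by the exact permutation test).

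The ligands Ccl3, Ccl4, Ccl12 and Cxcl16 were also set against Cx3cr1. The within-mouse difference to Cx3cr1 moved by 5.39 for Ccl3, 4.71 for Ccl4, 4.55 for Ccl12 and 5.54 for Cxcl16, each with an exact permutation p of 0.0286 and an adjusted value of 0.0514. The fall of Cx3cr1 alone brings these tests, and that of Cx3cr1 against Cx3cl1, to the smallest p. They are therefore no test of the ligands. The prior count sets the lowest value that a mouse with no count can take. Ccl4 and Ccl12 had no count in any depleted mouse, so their changes, also that of 0.68 between Ccl3 and Ccl4, are no measure of how much was lost.

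The order of the members by level changed at 1 place. Per kilobase of exon, the control mice had 152.1 ± 22.5 CPM of Cx3cl1, then 7.30 ± 0.885 of Cx3cr1, 5.49 ± 0.553 of Cxcl12 and 2.32 ± 0.159 of Ackr3, each apart from the next in every mouse. Below these came Cxcr4 at 0.789 ± 0.0921, Cxcl16 at 0.503 ± 0.181, Ccl3 at 0.267 ± 0.116, Ccl12 at 0.195 ± 0.135 and Ccl4 at 0.126 ± 0.101 CPM per kilobase, and each of these overlapped its neighbour. In the depleted mice Cx3cr1 had gone from the second to the seventh place, at 0.106 ± 0.0581 CPM per kilobase. The ligand Cx3cl1 (168.7 ± 24.8) stayed first, followed by Cxcl12 (5.90 ± 0.392), Ackr3 (2.09 ± 0.300), Cxcr4 (0.691 ± 0.129), Cxcl16 (0.310 ± 0.111) and Ccl3 (0.151 ± 0.102), of which Cxcl16 overlapped Ccl3 and Ccl3 overlapped Cx3cr1. Ccl4 and Ccl12 were at 0.

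The wider family list held 62 genes, 39 ligands and 23 receptors, of which 22 could be tested (13 ligands and 9 receptors) and 40 could not. Of the 22, 3 were lower, the receptor Cx3cr1 and the ligands Ccl6 and Ccl9, beside 1.11% of all tested genes, and none was higher by edgeR, beside 0.0546%. At an unadjusted p under 0.05 the list had 3 lower and 3 higher genes, where 5.60% of all tested genes were lower and 5.38% higher. The median log2 fold change of the 22 was 0.0035. Of the 40 that could not be tested, 25 had at least 9 counts in all, and 3 of these, Ccl4, Ccl12 and Ccr1, had no count in any depleted mouse, which held for 0.511% of all such genes. Another 5 at 0 in every depleted mouse had at most 3 counts in the control mice together. Ccl9, a CC ligand that binds CCR1, had 47, 37, 74 and 59 counts in control mice and 0, 0, 1 and 1 in depleted mice. With 2 counts against 217, 0.878% was left, with an exact binomial interval of 0.106% to 3.21%, and the fitted log2 fold change was -6.50 (SE 0.50; edgeR adjusted p = 7.03e-05). Ccl6, its neighbour on chromosome 11, had 41, 26, 36 and 45 counts in control and 4, 2, 4 and 4 in depleted mice. Its log2 fold change was -3.42 (SE 0.30; edgeR adjusted p = 1.78e-04), with 9.37% left. Neither ligand had overlapping groups, as for 3.50% of all genes tested with the depleted mice lower. The Ccl6 call was lost between the mice with Hcrt counts alone (log2 fold change -3.51, adjusted p = 0.0752).

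**Figure D4:**
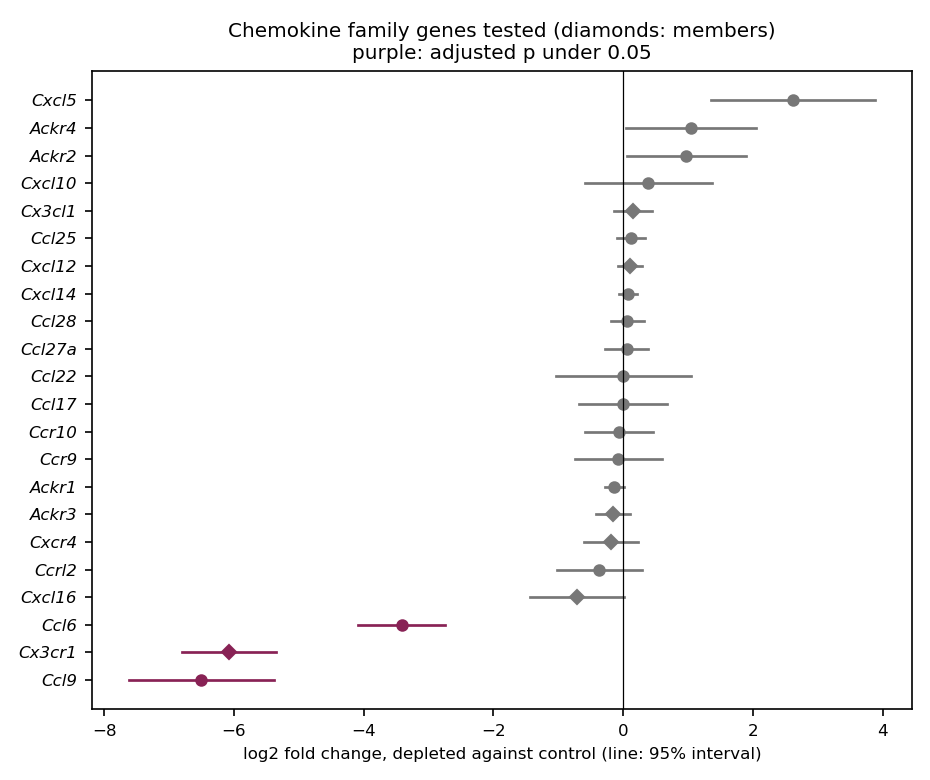
Log2 fold change, depleted against control, with its 95% interval (x axis) of the 22 chemokine ligand and receptor genes tested; diamonds are members and purple marks an adjusted p under 0.05. Ccl9, Cx3cr1 and Ccl6 lie at -3.42 or below, and Cxcl5 lies highest at 2.62 without passing the test.

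Of 8 markers of border macrophages, which also carry chemokine receptors, 5 were tested and 3 of these were lower by edgeR, beside 1.11% of all tested genes. The 3 were Mrc1 (log2 fold change -2.42), Stab1 (-2.42) and F13a1 (-2.19). Cd163, at 1.18 (adjusted p = 0.380), and Lyve1, at -0.58 (adjusted p = 0.716), did not pass. The 8 summed to 12.6 to 17.7 CPM in the control group and 3.17 to 5.96 CPM in the depleted group. Pf4, or CXCL4, a chemokine on that list, had 7, 7, 4 and 3 counts in control mice and 0, 2, 0 and 0 in depleted mice. The part of this cell type in the fall of Cx3cr1, Ccl6 and Ccl9 was not tested.

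The 3 most abundant of the other family genes did not pass the test. Cxcl14, a chemokine of interneurons, averaged 93.4 ± 2.84 CPM in the control group and 98.2 ± 7.28 CPM in the depleted group (SD, n = 4 each; log2 fold change 0.07, edgeR adjusted p = 0.747). Ccl27a, which has near-identical copies in the mouse genome and is therefore uncertain, had 47.4 ± 8.37 and 49.4 ± 8.46 CPM (log2 fold change 0.06, adjusted p = 0.925). Ackr1, the atypical receptor of venules and red cells, had a log2 fold change of -0.14 (adjusted p = 0.505), but it shares 361 exon bases with the neuronal gene Cadm3 on the same strand, so its counts are uncertain.

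Cxcl5, a neutrophil-attracting ligand named here after its values were seen, had every depleted mouse above every control mouse, as 1 of the 22 family genes tested and 2.28% of all genes tested did. It had 16, 14, 13 and 2 counts in control and 56, 23, 152 and 76 in depleted mice, or 0.214 ± 0.121 and 1.31 ± 0.739 CPM. The log2 fold change of 2.62 (SE 0.56, 95% interval 1.35 to 3.88) did not pass edgeR's test (adjusted p = 0.0759), whereas it passed with DESeq2 (adjusted p = 3.40e-04) and, by edgeR, with no count filter (adjusted p = 0.0186) and without depleted mouse 2 (adjusted p = 0.0143). Depleted mice 1, 3 and 4 also had the highest mean log2 CPM of the striatum list, at 7.83, 8.12 and 7.75 against 4.66 to 7.11 in the control mice, and depleted mouse 2, the lowest of its group for Cxcl5, had 6.12. With that list as a covariate the Cxcl5 log2 fold change was 1.71 (edgeR adjusted p = 1.00), and calls higher over all genes fell from 11 to 2. Of the 9 striatum markers 0 were called, and depleted mouse 2 lay within the control range of the list. Depleted mice 1, 3 and 4 lay above every control mouse, so striatal content and diet cannot be told apart here. The part of striatal content in the Cxcl5 values was not tested. The test with DESeq2, the one with no count filter and the one without depleted mouse 2 were the 3 of 19 alternatives in which Cxcl5 passed. Among the others the adjusted p was 0.172 with limma-voom and 0.292 with edgeR and the replicate block. The 6 neutrophil markers, none with enough counts to be tested, summed to 0.164 to 1.10 CPM in the control group and 0.206 to 0.606 CPM in the depleted group. Only 1 of the 6, Ly6g, was at 0 in every depleted mouse, and a difference in neutrophils was not tested.

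Downstream of the receptors, 5 genes known mainly from blood-derived and myeloid cells fell. A list of 32 genes of chemokine shedding and of receptor signalling had 29 genes tested, of which 5 were lower, beside 1.11% of all tested genes, and none higher, and the median log2 fold change was -0.04. At an unadjusted p under 0.05, 9 were lower and 3 higher, where 5.60% of all tested genes were lower and 5.38% higher. Vav1, an exchange factor for Rac in blood-derived cells, had 151, 142, 163 and 155 counts in control and 3, 0, 6 and 4 in depleted mice (-5.58 on the log2 scale, SE 0.38, edgeR adjusted p = 3.29e-05). Pik3cg, the catalytic subunit of the phosphoinositide 3-kinase that G-protein βγ subunits activate, fell by 2.60 on the log2 scale (SE 0.23, adjusted p = 1.72e-04). The Src-family kinase gene Lyn fell by 1.59 (SE 0.17, adjusted p = 6.74e-04). The leukocyte GTPase gene Rac2 fell by 2.59 (SE 0.29, adjusted p = 0.00105) and Dock2, which activates Rac in migrating leukocytes, by 3.43 (SE 0.47, adjusted p = 0.00410). The groups did not overlap for any of these 5 genes, as for 3.50% of all genes tested with the depleted mice lower. Some genes of the list that did not pass were separated too, as given below.

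Other genes of that list did not pass, and these were not only widely expressed ones. Pik3r5 had a log2 fold change of -0.73 (edgeR adjusted p = 0.116) and Pik3cd one of -0.28 (adjusted p = 0.0589). Plcb2 stood at -0.40 (adjusted p = 0.525) and Rgs10 at -0.17 (adjusted p = 0.771). Gnai2, the inhibitory G-protein subunit common in leukocytes, had a log2 fold change of -0.11 (edgeR adjusted p = 0.681), and Rac1, the widely expressed relative of Rac2, one of 0.05 (adjusted p = 0.832). Arrb2, an arrestin that ends receptor signalling, stood at -0.32 (adjusted p = 0.154) and Grk3, a receptor kinase, at -0.37 (adjusted p = 0.200). The groups did not overlap for Arrb2, Grk3, Pik3cd or Pik3r5. DESeq2 called these genes lower too, which made 9 lower genes in place of 5. Over all genes the calls lower rose from 223 to 346 with DESeq2. Without depleted mouse 2, edgeR called 7, with Arrb2 (adjusted p = 0.0457) and Grk3 (adjusted p = 0.0127) added, and 441 lower over all genes. Between the mice with Hcrt counts alone, 2 against 2, edgeR called 2 of the list lower, Vav1 and Pik3cg, and 66 lower over all genes. There Dock2, Rac2 and Lyn had log2 fold changes of -3.15, -2.89 and -1.48 (adjusted p = 0.112, 0.0748 and 0.0722). Between the mice without Hcrt counts 4 of the list were called lower, and 184 over all genes. There Rac2 stood at -2.21 (adjusted p = 0.0551).

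**Figure D5:**
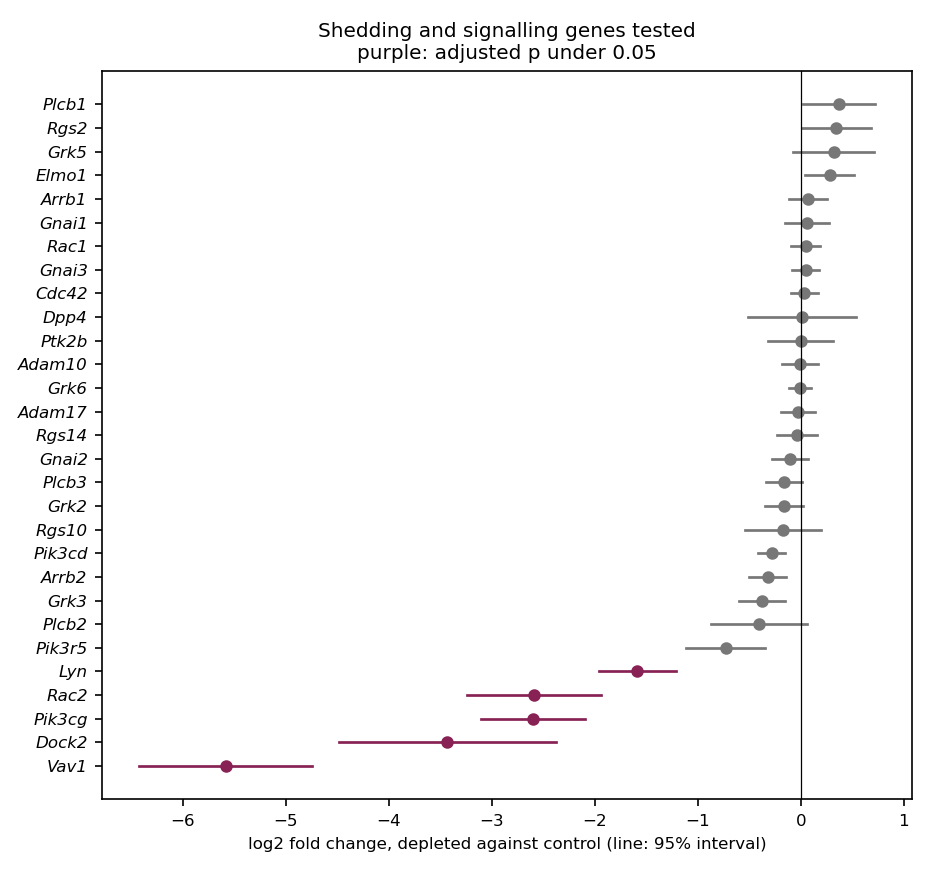
Log2 fold change, depleted against control, with its 95% interval (x axis) of the 29 genes of chemokine shedding and receptor signalling tested; purple marks an adjusted p under 0.05. The 5 genes that passed, from Lyn at -1.59 to Vav1 at -5.58, are all lower, and Adam10 and Adam17 lie at 0.

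Over the 8 mice, the genes with the most similar log2 deviations were Tacc1, Phyhip and Lmtk2 for Cx3cl1, at distances of 0.12, 0.13 and 0.15. They were Dph5, Wdyhv1 and Narf for Cxcl12, Galns, Hfe and Pdlim4 for Cxcr4, and Gm12592, Gm12709 and Dedd2 for Ackr3. The Cx3cr1 loss was present in both strata by Hcrt, at -6.54 between the mice with Hcrt counts and -5.63 between those without (edgeR interaction, adjusted p = 1.00).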

How the data were processed

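Whole-forebrain RNA of 8 mice was analysed from 1 table of raw counts (whole numbers, 1 row for each gene symbol), as the authors deposited it, with each column named after 1 mouse. The submitters' processing notes name the mm10 build and, as tools, STAR, FastQC, MultiQC, DESeq and DESeq2. Versions, strand setting and annotation were not given in the sources used here, so reads of overlapping genes on opposite strands may not be told apart. Groups came from the sample titles.

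In edgeR 4.0.16 (R 4.3.3), filterByExpr kept 20140 of the symbols, TMM scaled the libraries, and quasi-likelihood F tests (glmQLFit, glmQLFTest) compared depleted with control mice, with Benjamini-Hochberg adjustment over all genes tested and a threshold of 0.05. The biological coefficient of variation was 16.1%. Each standard error is the log2 fold change over the square root of F. CPM use the TMM-scaled library sizes, and a prior count of 2 enters log2 CPM. Single values were compared by exact two-sided permutation over 70 splits (scipy 1.17.1). Intervals of summed counts are exact binomial at 95% and cover counting error only. Floors of 3 counts apply over the depleted group, with the control counts taken as exact, and leave out the spread between mice. Replicate libraries differed by at least 11.2 times the sampling noise per gene, and each was counted once.

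Coordinates and exon lengths came from GENCODE M21 for mm10, which matched 49721 symbols (93.3%), and 2 list symbols were matched through current names. Promoters came from RefSeq, GRCm38.p6. The members and lists were chosen with earlier results of these data known, and 2 genes of the lists are not reported here. Named were all members, the receptors of member ligands, family genes past the threshold and the 3 most abundant others, the signalling genes past the threshold with Adam10 and Adam17, and the 3 genes nearest to each tested member. Cxcl5, Pf4, the 5 border macrophage markers tested, Gnai2, Rac1, Arrb2, Grk3, Pik3cd, Pik3r5, Plcb2 and Rgs10 were named after their values were seen.

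Alternatives were other scalings and filters, DESeq2 1.42.0, limma-voom (limma 3.58.1), the replicate number, Hcrt presence, striatum and fibroblast lists as covariates (the last added after seeing the data), strata by Hcrt, and leaving out each mouse. The steps were tested on simulated data.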

Additional observations from a re-analysis of the deposited data

Results flagged for a closer look

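Among 51 groups of 4 mice for the named genes, 2 had a single mouse far from the other 3 by Dixon's ratio (critical value 0.829), and chance alone marks about 1 group in 20. Ccl3 was at 0 CPM in depleted mouse 2, with the other depleted mice between 0.144 and 0.173 CPM, where they had 7 to 12 counts. Lyn was lowest in control mouse 1, at 5.08 CPM, where the other control mice had 6.08 to 6.21 CPM.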

How the results depend on the processing

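Over the alternatives run, no call of a member tested in the main fit changed. Ccl4, which was under the filter there, had an exact permutation p of 0.0286, while edgeR with no filter gave an adjusted p of 0.175. Cx3cr1 passed in 20 of 20, between -6.54 and -5.63 on the log2 scale. The other 5 members tested passed in 0 of 20, with ranges of -0.03 to 0.25 for Cx3cl1, 0.04 to 0.16 for Cxcl12, -0.38 to -0.02 for Cxcr4, -0.24 to -0.07 for Ackr3 and -1.13 to -0.21 for Cxcl16. Family genes called lower were 1 in place of 3 with a filter of 1 CPM in 4 mice, which leaves Ccl6 and Ccl9 untested. Family genes called higher were 1 (Cxcl5) in place of 0 with no filter and with DESeq2, and 0 to 1 on leaving out each mouse. Signalling genes called lower were 9 in place of 5 with DESeq2 and 7 without depleted mouse 2, and the cause of these 2 changes was not tested. They were 2 between the mice with and 4 between those without Hcrt counts, fits with 4 mice in place of 8. Over all genes the same fits called 346, 441, 66 and 184 lower, in that order, in place of 223. The within-mouse differences were not tested with 1 mouse left out.

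With the replicate number as a block, the calls were 1 member, 3 family genes and 5 signalling genes lower, as without it, and Cx3cr1 had a log2 fold change of -6.10 (adjusted p = 0.00155). Over all genes the block gave 161 lower and 4 higher in place of 223 and 11. The numbers share no stated source: deviations of same-numbered mice correlated at -0.22, -0.17, 0.37 and -0.01, and 1 of 4 numbers matched best with its own. Depth limits Ccl3, Ccl4, Ccl12, Ccr1, Ccr2 and Cxcr6, where single counts move the values.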
